A study of Mus musculus with 10 samples.

Results

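The 10 immediate early genes Fos, Fosb, Jun, Junb, Egr1, Ier2, Atf3, Dusp1, Zfp36 and Nr4a1 were described in portal tracts of 1-week-old mouse livers. They were chosen as a list of names, and each was read from its probe set with exactly 1 gene symbol. All 10 had 1 such probe set, out of 22180 genes measured. A portal tract holds a bile duct, a portal vein branch and an artery in a sleeve of connective tissue. Each array carried RNA of 12 to 20 tracts, cut with a laser out of frozen liver sections. The 5 control samples are labelled C57Bl/6J, and the other 5 carry 1 mutant allele each of the Notch ligand gene Jag1 and of the Notch-modifying enzyme gene Rfng (Jag1+/-Rfng+/-), with no strain given. The study asks how programs of remodelling and differentiation differ between these groups. The kind of mutant allele, the number of mice behind a sample and how a frozen liver was collected are not given in the sources used here. No label says that each sample is a separate mouse, so a p-value here speaks only of sample-to-sample spread, which may be technical.

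Immediate early genes are transcribed within minutes of a stimulus, without the need for new protein. Signals of mitogen-activated protein kinases reach the factors SRF and CREB, which are already bound or present in the cell. These factors switch the genes on. Many of the products are transcription factors themselves, while others, such as Dusp1 and Zfp36, shut the response down. In liver the genes are known for their fast rise after injury or partial hepatectomy, and also during excision, warming or dissociation of tissue.

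Sequences just before the start sites of these genes are shown for Fos with Zfp36 and Jun with Nr4a1, the pairs of the 10 with the highest Spearman correlations over the arrays. Of the 10 genes 8 matched a RefSeq promoter (GRCm38.p6), and the 250 bases before the start are printed 5′ to 3′ on the gene's strand. Capitals mark TGACG (the core of the CREB element), TATAAA, GCGGGGGCG (a site of the EGR family) and the CArG box bound by SRF, each on either strand.
Jun, chr4:95052223-95052472, minus strand: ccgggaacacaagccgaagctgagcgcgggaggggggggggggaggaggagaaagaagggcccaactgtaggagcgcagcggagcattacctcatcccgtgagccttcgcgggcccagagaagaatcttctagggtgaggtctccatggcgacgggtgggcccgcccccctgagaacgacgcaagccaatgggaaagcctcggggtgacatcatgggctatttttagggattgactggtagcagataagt
Nr4a1, chr15:101266596-101266845, plus strand: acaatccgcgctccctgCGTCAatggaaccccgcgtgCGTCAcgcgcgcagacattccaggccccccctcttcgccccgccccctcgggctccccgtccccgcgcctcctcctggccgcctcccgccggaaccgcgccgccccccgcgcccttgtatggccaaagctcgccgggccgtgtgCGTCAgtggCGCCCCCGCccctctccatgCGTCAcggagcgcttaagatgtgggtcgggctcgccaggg
Fos, chr12:85473640-85473889, plus strand: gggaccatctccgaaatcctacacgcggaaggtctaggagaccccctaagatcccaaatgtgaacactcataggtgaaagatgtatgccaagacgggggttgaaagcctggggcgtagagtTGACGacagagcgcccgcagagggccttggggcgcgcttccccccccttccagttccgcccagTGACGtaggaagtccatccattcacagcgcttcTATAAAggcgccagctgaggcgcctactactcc
Zfp36, chr7:28379229-28379478, minus strand: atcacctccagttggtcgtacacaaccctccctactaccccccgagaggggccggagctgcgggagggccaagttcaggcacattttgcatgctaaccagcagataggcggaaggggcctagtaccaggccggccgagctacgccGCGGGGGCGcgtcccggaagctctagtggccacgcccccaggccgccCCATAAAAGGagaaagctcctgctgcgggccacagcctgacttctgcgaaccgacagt
TGACG occurred in 6 of the 8 windows (Fos, Fosb, Junb, Atf3, Dusp1 and Nr4a1), against 17.7% of 32817 promoter windows of the same length. Nr4a1 held it at 4 places, beginning 233, 213, 69 and 40 bases before the start. Fos held it 129 and 66 bases before the start, with TATAAA at 33 bases. GCGGGGGCG occurred in Fosb, Zfp36 and Nr4a1 (3 of 8, against 2.57% of all windows) and the CArG box in Zfp36 alone among the 8, against 1.47% of all windows. The full element TGACGTCA, which contains TGACG, occurred in Dusp1 (1 of 8, against 1.55%), TATAAA in Fos (1 of 8, against 12.4%), and the AP-1 element TGACTCA in 0 of 8, against 4.46%. In the Jun window none of these letters was found. A match is a description of the sequence only. Egr1 and Ier2 had no matched promoter, and sites outside the 250 bases were not searched, so a missing match does not mean a missing site.

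Values are log2 expression, so a difference of 1 is a doubling. Genes taken as absent, Xist and 3 Y-linked genes on the arrays where they were low, read 1.82 to 2.91, which is called the absent range here. Precision is limited by there being 5 arrays in a group. Jag1+/-Rfng+/- replicate 5 was the array least like the rest (r = 0.956 to 0.963, where any pair of the remaining 9 gave 0.969 or more), and its sample name carries an unexplained suffix. The sample names hold a number, of unstated meaning, which is the same on 7 arrays (3 control and 4 Jag1+/-Rfng+/-). Control replicates 1 and 5 and Jag1+/-Rfng+/- replicate 1 each have a number of their own. Xist was high on 2 arrays of each group, which among controls were replicates 1 and 5. For Rfng the control mean was 4.82 ± 0.20 and the Jag1+/-Rfng+/- mean 4.36 ± 0.16 (SD, n = 5), and for Jag1 they were 5.72 ± 0.93 and 4.39 ± 0.63. Rfng did not overlap between the groups (4.61 to 5.13 in controls, 4.19 to 4.57 in Jag1+/-Rfng+/-), as held for 1.38% of all genes, while Jag1 overlapped. The unadjusted limma p was 0.00257 for Rfng and 0.00819 for Jag1, where 6.76% of all genes had one under 0.05. Neither passed limma with Benjamini-Hochberg adjustment over all genes (adjusted p = 0.416 and 0.559), and the probes may lie outside the altered part of either gene. Of the labelled tissue's markers, 12 of 13 biliary and 16 of 18 portal fibroblast genes averaged above the absent range (Cftr, Clec3b and Upk1b did not), as did all 17 hepatocyte genes measured. The median value of every array also lay above that range, so these counts alone do not set the markers apart. The share of all genes above it was not counted. The list means differed in level. Over the arrays they were 10.01 to 10.44 for hepatocyte, 4.76 to 6.11 for biliary and 4.64 to 6.19 for portal fibroblast genes.

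The levels of the immediate early genes overlapped between Jag1+/-Rfng+/- and control tracts, and no difference between the groups passed the test. Of the 10 genes 6 averaged higher in Jag1+/-Rfng+/- (48.5% of all genes did) and 4 lower, with differences from -0.17 for Jun to 0.37 for Egr1. Their median difference was 0.04, against -0.01 over all genes. In limma 0 of 10 passed an adjusted p of 0.05 (lowest 0.825), where 0.00902% of all genes did. At an unadjusted limma p under 0.05 the count was also 0 of 10, against 6.76% of all genes, and an exact permutation test passed 0 of 10 (p = 0.238 to 0.976, two-sided, smallest possible 0.00794). The groups overlapped for every one of the 10, while 1.38% of all genes did not overlap. For each of the 10 the difference was smaller than the SD between arrays within groups, at most 0.83 of it (Zfp36), which also held for 81.7% of all genes. The 95% intervals leave room for differences: as folds of Jag1+/-Rfng+/- over control they ran from 0.590 to 1.65 for Nr4a1, 0.790 to 2.10 for Egr1 and 0.763 to 1.35 for Dusp1.

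**Figure D1:**
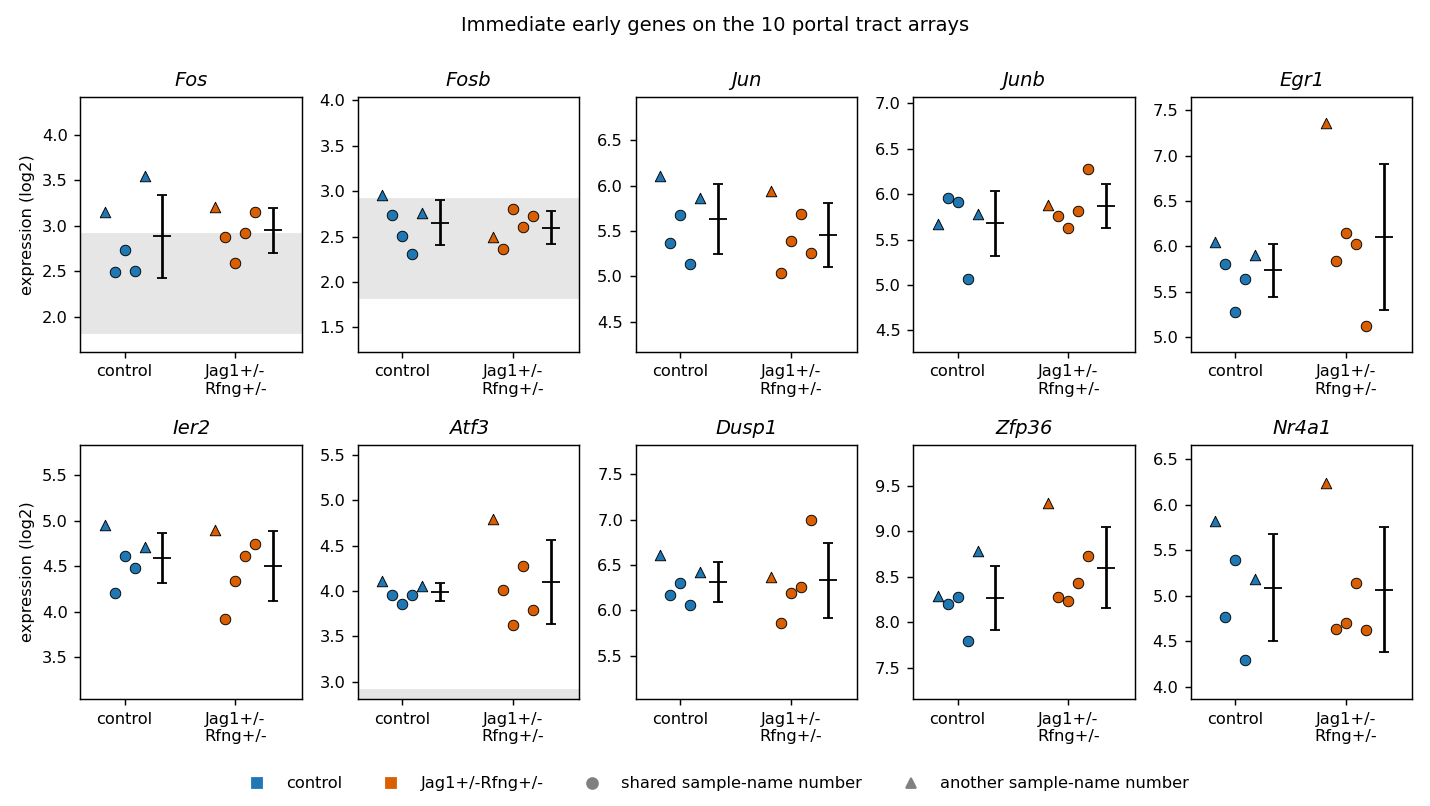
Log2 expression of the 10 genes on each array, with control arrays in blue and Jag1+/-Rfng+/- arrays in orange, the mean and SD of each group in black, and the range of absent genes in grey. Triangles mark the 3 arrays with a sample-name number of their own. The groups overlap in every panel, and Egr1, Atf3, Zfp36 and Nr4a1 have their highest point on Jag1+/-Rfng+/- replicate 1.

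The AP-1 subunits come first by role. Fos and Jun proteins pair through a leucine zipper into the AP-1 transcription factor, and Fosb and Junb are their relatives. Fos read 3.15, 2.49, 2.74, 2.50 and 3.54 on control replicates 1 to 5 and 3.21, 2.88, 2.59, 2.92 and 3.16 on Jag1+/-Rfng+/- replicates 1 to 5. On 5 of the 10 arrays (3 control, 2 Jag1+/-Rfng+/-) this lies within the range of absent genes, so Fos was at or near the floor of the assay in both groups. The difference was 0.07 ± 0.21 (SE; limma adjusted p = 0.968). Fosb lay within that range on 9 of 10 arrays, at 2.31 to 2.96 in controls and 2.36 to 2.81 in Jag1+/-Rfng+/-, so its difference of -0.06 has no meaning as a fold.

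Jun was well above that floor. It read 6.11, 5.37, 5.67, 5.14 and 5.86 on control replicates 1 to 5 and 5.94, 5.04, 5.39, 5.68 and 5.26 on Jag1+/-Rfng+/- replicates 1 to 5. Control replicate 1 and Jag1+/-Rfng+/- replicate 1 were high and Jag1+/-Rfng+/- replicate 2 and control replicate 4 low, so each group held both ends of the range. The difference was -0.17 ± 0.21 (SE), 1.13-fold lower in Jag1+/-Rfng+/- (limma adjusted p = 0.898), and without single arrays it lay between -0.29 (control replicate 4 left out) and -0.051 (control replicate 1 left out). Junb, whose protein can restrain Jun, did not follow it. Junb read 5.06 on control replicate 4 and 5.68 to 5.95 on the other controls, and 5.63 to 5.88 on Jag1+/-Rfng+/- replicates 1 to 4 with 6.27 on replicate 5. Its difference was 0.19 ± 0.18 (SE; limma adjusted p = 0.868), or 0.038 with control replicate 4 left out and 0.091 with Jag1+/-Rfng+/- replicate 5 left out.

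Egr1, Atf3 and Nr4a1 are transcription factor genes outside AP-1. Egr1, a zinc finger factor downstream of SRF, had the largest difference and the widest range from lowest to highest array. It read 6.05, 5.81, 5.28, 5.64 and 5.91 on control replicates 1 to 5 and 7.36, 5.84, 6.15, 6.03 and 5.13 on Jag1+/-Rfng+/- replicates 1 to 5. The Jag1+/-Rfng+/- group thus held both the highest and the lowest array, 4.69-fold apart, against 1.70-fold among controls. Its SD was 0.81 in Jag1+/-Rfng+/- and 0.29 in controls, a gap in spread that was not tested. The group difference of 0.37 ± 0.32 (SE; limma adjusted p = 0.865, exact permutation p = 0.405) became 0.05 without Jag1+/-Rfng+/- replicate 1 and 0.61 without replicate 5.

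Atf3 is a factor of the ATF/CREB family induced by many stresses. Atf3 held within 3.85 to 4.11 on the 5 control arrays, an SD of 0.10. In Jag1+/-Rfng+/- it read 4.80, 4.01, 3.62, 4.27 and 3.79 on replicates 1 to 5, an SD of 0.46, with arrays both above and below all controls. The difference was 0.11 ± 0.19 (SE; limma adjusted p = 0.932), and without replicate 1 it turned to -0.063. Nr4a1, an orphan nuclear receptor, read 5.82, 4.76, 5.39, 4.29 and 5.18 on control replicates 1 to 5 and 6.24, 4.64, 4.70, 5.14 and 4.63 on Jag1+/-Rfng+/- replicates 1 to 5. The range spanned 2.89-fold in controls and 3.05-fold in Jag1+/-Rfng+/-, and the group means were 5.09 and 5.07, a difference of -0.02 ± 0.34 (SE; limma adjusted p = 0.995). Its sign turned with each of 6 single arrays left out, over -0.31 to 0.16.

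The remaining members limit the response or lie beside it. Zfp36 encodes tristetraprolin, which binds AU-rich messages, many immediate early ones among them, and brings about their decay. Zfp36 read 8.28, 8.20, 8.27, 7.79 and 8.78 on control replicates 1 to 5 and 9.32, 8.28, 8.24, 8.44 and 8.73 on Jag1+/-Rfng+/- replicates 1 to 5. Jag1+/-Rfng+/- replicate 1 lay above all controls, and the other 4 lay within the control range. It had the lowest p of the 10, with a difference of 0.33 ± 0.22 (SE), 1.26-fold higher (limma unadjusted p = 0.160, adjusted p = 0.825; exact permutation p = 0.238), and 4 of 5 Jag1+/-Rfng+/- arrays lay above the control mean. Without Jag1+/-Rfng+/- replicate 1 the difference was 0.15, and without replicates 1 and 5 it was 0.049.

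Dusp1 encodes a phosphatase that switches off mitogen-activated protein kinases. Dusp1 ranged from 6.06 to 6.61 in controls, and in Jag1+/-Rfng+/- it read 5.86 to 6.37 on replicates 1 to 4 and 6.99 on replicate 5. The difference was 0.02 ± 0.19 (SE; limma adjusted p = 0.991), or -0.15 without replicate 5. Ier2, a nuclear protein gene of the early response, ranged from 4.21 to 4.96 in controls and from 3.92 to 4.90 in Jag1+/-Rfng+/-. Its difference was -0.09 ± 0.19 (SE; limma adjusted p = 0.952).

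**Figure D2:**
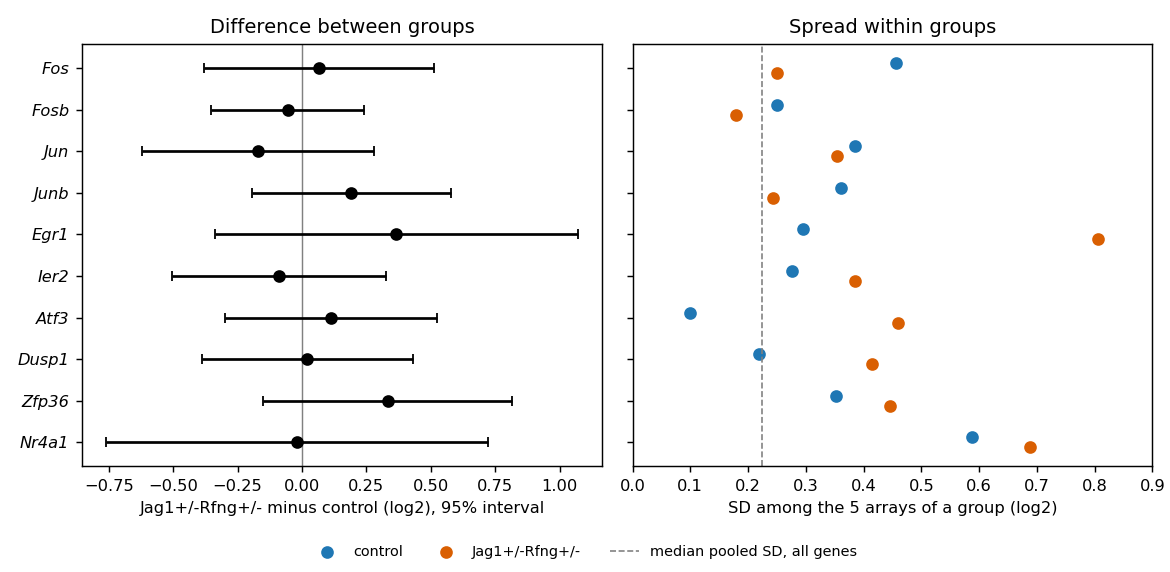
Left, the difference between groups (Jag1+/-Rfng+/- minus control, log2) of each gene with its 95% interval from limma. Right, the SD among the 5 arrays of each group (log2), with the median pooled SD of all genes, 0.22, as a dashed line. Every interval on the left includes 0, and Egr1 and Nr4a1 lie farthest to the right.

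Spread between arrays was above the median for most of these genes. The pooled SD within groups was above the median of all genes (0.22) for 9 of 10, the exception being Fosb, which lay mostly in the absent range. Because spread depends on level, each gene was also ranked among genes whose mean lay within 0.5 log2 of its own. All 10 ranked in the upper part, from the 62.1st percentile for Junb to the 95.5th for Egr1 and the 96.2nd for Nr4a1, with a median percentile of 73.8. From the lowest to the highest of the 10 arrays, the 8 genes above the absent range on all arrays spanned 2.04-fold (Ier2) to 4.69-fold (Egr1). A pooled SD can come mostly from 1 group. The SD was larger in Jag1+/-Rfng+/- than in controls for 6 of 10, among them Atf3 (0.46 against 0.10) and Dusp1 (0.41 against 0.22). For Fos it was smaller (0.25 against 0.46). These gaps were not tested.

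The same arrays tended to be high for many of the genes. Relative to the control mean, the mean of the 10 was highest on Jag1+/-Rfng+/- replicate 1 (0.57), control replicate 1 (0.29) and control replicate 5 (0.22), and lowest on control replicate 4 (-0.36) and Jag1+/-Rfng+/- replicate 2 (-0.23). Jag1+/-Rfng+/- replicate 1 had the highest value for 4 of 10 genes, and control replicate 1 was highest for 3. Control replicate 4 had the lowest value for 4 of 10 and lay below the control mean for all 10. Jag1+/-Rfng+/- replicate 5 was split, highest for Junb and Dusp1 and lowest for Egr1.

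With Fos, each of the other 9 genes correlated positively over the 10 arrays, with r from 0.24 (Egr1) to 0.75 (Zfp36). How often genes outside the list correlate positively with Fos was not tested. For Zfp36 the permutation p was 0.00988, or 0.0889 adjusted over the 9 relations, and Spearman's rho was 0.96 (permutation p = 5e-05, adjusted 0.00045). Without the 2 arrays farthest from the Fos median r was 0.79, and among the 7 arrays of equal number alone it was 0.86 (exact permutation p = 0.00536). The low end of Fos lies in the absent range, where a value has little meaning. All 5 arrays on which Fos lay there are among these 7, so the value of 0.86 rests mostly on such readings. By Pearson's r 0 of the 9 passed adjustment, with 1 at an unadjusted permutation p under 0.05. By Spearman's rho 3 of the 9 passed, Zfp36 beside Ier2 (rho = 0.76) and Dusp1 (rho = 0.75, adjusted permutation p = 0.0497 for both). Within the 7 arrays of equal number r was 0.36 for Ier2 and 0.63 for Dusp1 (exact permutation p = 0.425 and 0.12).

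Over all 45 pairs, taken up after the data were seen, 40 of the correlations were positive with a median r of 0.47. Pairs of other genes were not correlated in this way. Whether this count or median sets the immediate early genes apart was therefore not tested. After adjustment over the 45 by Pearson's r, 1 pair passed, Jun with Nr4a1 (r = 0.89, permutation p = 0.0004, adjusted 0.018; rho = 0.90, permutation p = 0.0008, adjusted 0.018). This pair gave 0.90 without the 2 arrays farthest from the Jun median, 0.87 to 0.93 with any 1 array left out, and 0.88 within the 7 arrays with the shared number (exact permutation p = 0.0129). By Spearman's rho 3 pairs passed adjustment over the 45: Fos with Zfp36 (adjusted permutation p = 0.00225), Jun with Nr4a1, and Ier2 with Dusp1 (rho = 0.89, permutation p = 0.00126, adjusted 0.0189). For Ier2 with Dusp1 r was 0.74 (permutation p = 0.0146, adjusted 0.151), 0.59 without the 2 arrays farthest from the Ier2 median and 0.76 within the 7 arrays with the shared number (exact permutation p = 0.0571). Egr1 with Atf3 gave r = 0.79 (permutation p = 0.0204, adjusted 0.153; rho = 0.55, permutation p = 0.103, adjusted 0.261), but this rests on Jag1+/-Rfng+/- replicate 1: without it r was 0.32, and without the 2 arrays farthest from the Egr1 median 0.14. Within the 7 arrays with the shared number the median r of the 45 pairs was 0.22, with 34 positive. Deviations from the group means gave a median of 0.49.

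**Figure D3:**
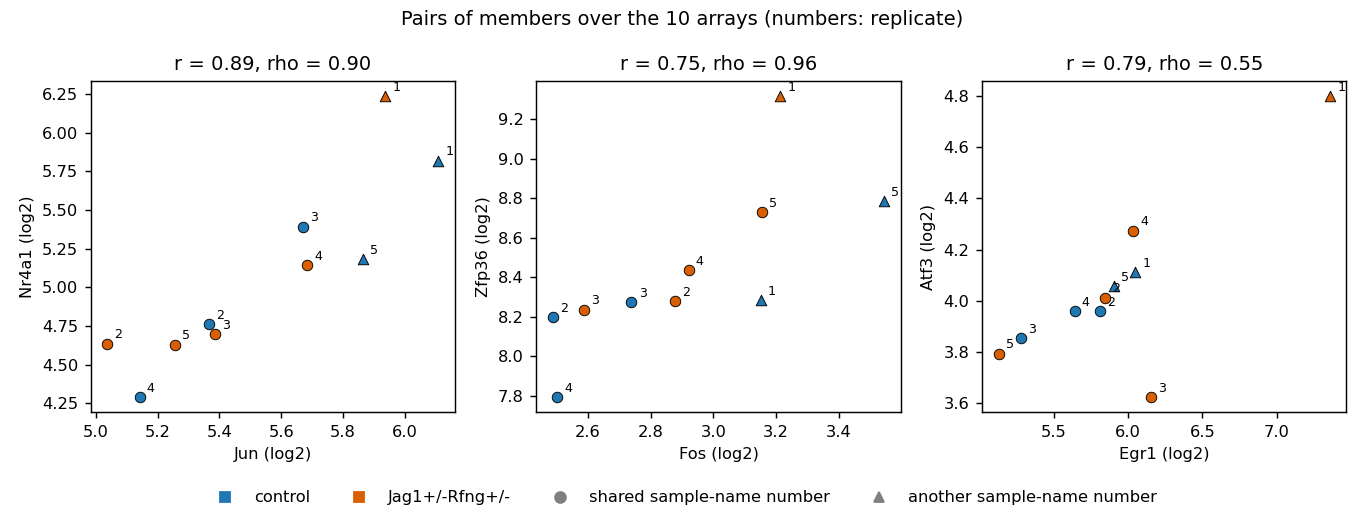
Log2 expression of Nr4a1 against Jun, Zfp36 against Fos and Atf3 against Egr1, with 1 point per array, numbered by replicate; colours give the group and triangles the arrays with a sample-name number of their own. Jun and Nr4a1 rise together over all arrays (r = 0.89), while Jag1+/-Rfng+/- replicate 1 stands alone at the upper right for Egr1 and Atf3.

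The 3 arrays with a sample-name number of their own were high for most of the genes. This was looked at after the values were seen. A limma fit over all genes held a term for these arrays beside the term for the group. Differences and folds given here come from that term and are adjusted for group. By that term all 10 genes were higher there than on the other 7 arrays, as were 52.1% of all genes. The median difference was 0.52, against 0.01 over all genes. At an unadjusted p under 0.05, 7 of 10 were higher (Fos, Jun, Egr1, Ier2, Atf3, Zfp36 and Nr4a1), against 3.42% of all genes; in either direction 6.23% of all genes had such a p. Adjusted over all genes, limma passed 0 of 10 (lowest adjusted p = 0.687) and 0.00451% of all genes. Jun read 5.86 to 6.11 on the 3 arrays and 5.04 to 5.68 on the 7, without overlap, as did 1.1% of all genes. Nr4a1 read 5.18 to 6.24 on the 3 and 4.29 to 5.39 on the 7, and Ier2 read 4.71 to 4.96 and 3.92 to 4.75. By the term, Nr4a1 was 1.99-fold and Ier2 1.35-fold higher on the 3.

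Without Jag1+/-Rfng+/- replicate 1 the 10 genes were still higher on the remaining 2 such arrays, but 2 of 10 (Fos and Jun) had an unadjusted p under 0.05, against 2.38% of all genes. Leaving out any other single array left 6 to 8 of 10 at that p, against 2.68 to 5.09% of all genes, and 9 of 10 genes were higher without control replicate 4 and 10 of 10 otherwise. The 3 arrays carry 3 different numbers and both controls among them had high Xist, while Jag1+/-Rfng+/- replicate 1 had not. What the number stands for cannot be told from the labels. The limma term compared these 3 arrays with the others, and the cause of their higher levels was not tested.

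Of the 7 arrays that share the number, 3 are control and 4 Jag1+/-Rfng+/-. Fos read 2.49 to 2.74 on these 3 controls, within the absent range, so its difference has no meaning as a fold. Within the 7 arrays the group differences were 0.31 for Fos and 0.33 for Zfp36 (exact permutation p = 0.114 for each) and 0.21 for Egr1 (exact permutation p = 0.514). Jun, Nr4a1 and Ier2 differed there by -0.05, -0.04 and -0.03 (exact permutation p = 0.8 to 0.914), and Atf3 by 0.00 (exact permutation p = 1). With the number as a term over all 10 arrays Zfp36 differed by 0.46 and Egr1 by 0.54, and neither passed limma over all genes (adjusted p = 0.561 and 0.717). At an unadjusted limma p under 0.05 the count became 1 of 10 (Zfp36), against 6.99% of all genes in that fit.

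Markers of other cell types and states moved on some of the same arrays. On Jag1+/-Rfng+/- replicate 1, the highest for Egr1, Atf3, Zfp36 and Nr4a1, the macrophage and Kupffer cell list averaged 0.77 above the control mean, against -0.35 to 0.27 on controls and -0.29 to 0.25 on the other Jag1+/-Rfng+/- arrays. None of its 13 genes averaged within the absent range. The portal fibroblast list lay at -1.03 there and -1.15 on replicate 5, against -0.56 to 0.39 on controls and -0.70 to -0.09 on the other 3. On Jag1+/-Rfng+/- replicate 5, the highest for Junb and Dusp1, the erythroid list (6 genes, of which Gata1 averaged within the absent range) stood at 2.23, against -0.66 to 0.53 on controls and -0.32 to 0.21 on the other Jag1+/-Rfng+/- arrays. The hypoxia list stood at 0.63 there, against -0.08 to 0.08 on controls. The glucocorticoid response list stood at 0.55 on the same array and at 0.29 on Jag1+/-Rfng+/- replicate 1. It lay at -0.15 to 0.19 on controls and -0.03 to 0.12 on the other Jag1+/-Rfng+/- arrays. On control replicate 4, lowest for 4 of the 10, the portal fibroblast list was at -0.56 and vascular smooth muscle at -0.92. Vascular smooth muscle was as low, at -1.06, on Jag1+/-Rfng+/- replicate 1, where the mean of the 10 was highest. On control replicate 1, highest for 3 of the 10, the B and T lymphocyte list (8 genes, of which Ms4a1 and Vpreb1 averaged within the absent range) stood at 0.80, against -0.49 to 0.20 on the other controls and -0.75 to -0.08 on Jag1+/-Rfng+/- arrays. The erythroid list was at 0.53 there and at 0.49 on control replicate 5, but at -0.32 on Jag1+/-Rfng+/- replicate 1. The part of these lists in the levels of the immediate early genes was not tested. In such bulk samples, fewer cells of a type and less RNA per cell cannot be told apart.

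Other lists of fast or stress-related genes put the 10 in context, with counts from the same limma fit. Beside each count stand the shares over all genes: 48.5% lay higher in Jag1+/-Rfng+/-, and 6.76% had an unadjusted p under 0.05 in either direction. Of 54 measured other immediate early genes 38 lay higher in Jag1+/-Rfng+/- and 16 lower, by a median of 0.09, with 6 higher and 1 lower at an unadjusted p under 0.05 and 0 adjusted over all genes. The lowest p belonged to the small Maf factor gene Maff (0.39), the liver C/EBP factor gene Cebpb (0.41), the polo-like kinase gene Plk3 (0.39) and Ier3 (0.45), with limma adjusted p from 0.619 to 0.706. Of these, Cebpb read 5.68 on Jag1+/-Rfng+/- replicate 1 and 4.93 to 5.12 on replicates 2 to 5, against 4.48 to 5.01 in controls. The input list of MAP kinases, SRF and CREB had 5 of 20 higher and 15 lower (median -0.09). In it Rps6ka3, a kinase that acts on CREB, differed by -0.38, with groups that did not overlap (limma adjusted p = 0.564), and Map2k2, Map2k4 and Mapk8 differed by 0.23, -0.16 and -0.30.

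Heat shock genes, which warming or protein damage induces, had 6 of 19 higher and 13 lower (median -0.08), with 0 at an unadjusted p under 0.05. Those with the lowest p, Dnajb4, Ahsa1, Hspa4l and Hsph1, differed by -0.25 to 0.19, and Dnajb4 and Hspa1a averaged within the absent range. On single arrays the mean of the heat shock list lay between -0.25 (Jag1+/-Rfng+/- replicate 5) and 0.15 (control replicate 5) of the control mean. The hypoxia list had 14 of 19 higher (median 0.15) and 0 at an unadjusted p under 0.05. Its Bnip3, a mitophagy gene, read 8.11 on Jag1+/-Rfng+/- replicate 5 and 6.62 to 7.14 on the other 4, and Ldha, Hk2 and Adm differed by 0.31, 0.27 and 0.31.

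The integrated and oxidative stress list had 14 of 17 higher (median 0.22), with 1 in each direction at an unadjusted p under 0.05: Hmox1, which encodes heme oxygenase, differed by 0.56 and Gclc, of glutathione synthesis, by -0.49, beside Asns at 0.41 and Srxn1 at 0.22. Glucocorticoid response genes, which handling of the animal can raise, had 8 of 12 higher (median 0.16), with 2 at an unadjusted p under 0.05, Zbtb16 (0.98) and Cdkn1a (0.53), beside Lcn2 at 0.44 and Tsc22d3 at -0.19. Stably expressed reference genes had 4 of 12 higher (median -0.10), Gapdh at 0.24 and Tbp, B2m and Ywhaz at -0.22, -0.11 and -0.17. In limma 0 genes of these 7 lists passed adjusted over all genes.

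**Figure D4:**
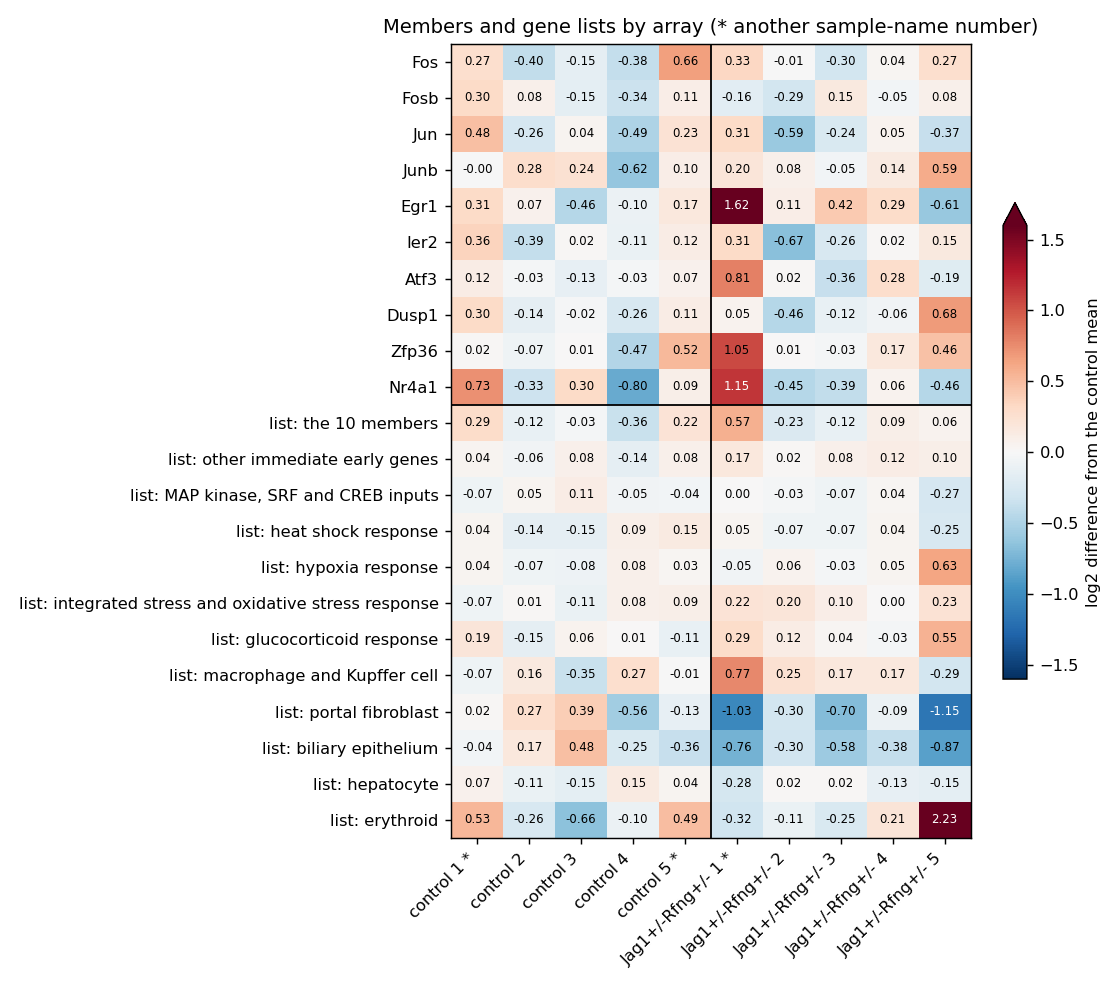
Log2 difference from the control mean for the 10 genes (upper rows) and for the mean of gene lists (lower rows) on each array; red is higher, blue lower, and stars mark the arrays with a sample-name number of their own. Jag1+/-Rfng+/- replicate 1 is red for Egr1 (7.36 on that array), Nr4a1 (6.24) and Zfp36 (9.32) beside the macrophage list (0.77 above the control mean), and the heat shock row stays within -0.25 to 0.15.

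The genes most like the 10 were found by the correlation of their deviations from the group means with the mean deviation of the 10, over 10 arrays. The 8 at the top were Mrps14, Eva1c, Ttk, Srxn1, Ppp1r14bl, Iqcn, Cebpb and Zfp248, with r from 0.95 to 0.92. Of these Ppp1r14bl lay within the absent range on all 10 arrays, Eva1c and Zfp248 on 9 and Mrps14 on 7, while Ttk, a mitotic kinase gene, Srxn1, an antioxidant enzyme gene, Iqcn and Cebpb lay above it. Among 22170 genes 131 (0.591%) had r above 0.8, and Cebpb was the 1 among the 54 other immediate early genes. Of those 54, 38 had a positive r, and the share of all genes with a positive r was not counted. The median r of the 54 was 0.16, against 0.01 over all genes. Plk3, Klf4, Klf2 and Ier3 followed Cebpb with 0.76, 0.73, 0.72 and 0.71. Klf4 and Klf2, which encode Krüppel-like factors, were named after their values were seen.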

How the data were processed

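Each of 10 samples, 5 control and 5 Jag1+/-Rfng+/-, was hybridized to 1 single-colour array. The authors deposited log2 expression values for 33649 probe sets (1.08 to 12.47). The submitters' processing notes name RMA and Partek 6.6 but not what each did. RMA brings arrays to a common distribution, which can hide a global shift, and it pulls small folds of dim probes toward 0. Only these processed values were analysed. Symbols came from the platform annotation (23521 probe sets with 1 symbol, 1814 with several and 8314 with none), and the probe set with the highest mean was taken for each gene, which gave 22180 genes. The table held 0 columns of no sample and 0 pairs of identical arrays.

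The test was limma 3.58.1 (lmFit, eBayes; R 4.3.3), two-sided, with no covariate and Benjamini-Hochberg adjustment over all genes at 0.05; it was tested on simulated data. Beside it stand exact permutation tests over the 252 splits of the 10 arrays and, for correlations, 100000 permutations. Alternatives were single arrays left out, a block for the replicate number, a fit on the 7 arrays of equal sample-name number, other normalizations, trend and robust eBayes, array weights, a filter on low values and the mean of probe sets. The number as a term and leaving out Jag1+/-Rfng+/- replicates 1 and 5 together were chosen after seeing the data.

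The members and lists were chosen with earlier results of these data known. Named genes are the 10, Jag1 and Rfng, the 4 of lowest p in each response list, and the 8 most like the 10 genes. Some genes stand in more than 1 list.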

Additional observations from a re-analysis of the deposited data

Results flagged for a closer look

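Among 126 groups of 5 arrays checked, 8 had an array whose gap to its nearest neighbour was over 0.71 of the whole range. Chance flags about 1 in 20 groups where genes are not chosen by their values, which many here were. Of the 20 groups of the 10 immediate early genes, 0 had one. On Jag1+/-Rfng+/- replicate 1, Cebpb read 5.68 (the other 4 arrays 4.93 to 5.12), Iqcn 3.93 (3.39 to 3.41) and Zfp248 3.09 (2.32 to 2.52). They were among the genes chosen for following the mean deviation of the 10. That mean was highest on this array, so a high reading there was favoured by the choice. Zfp248 lay within the absent range on 9 of 10 arrays. On Jag1+/-Rfng+/- replicate 5, Asns read 6.52 (5.87 to 5.95), Gapdh 11.45 (10.85 to 10.94) and Dnajb4 2.96 (2.54 to 2.61). On the same array the mean of the hypoxia list stood 0.63 above the control mean (the other 4 at -0.05 to 0.06) and that of the erythroid list 2.23 (-0.32 to 0.21).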

How the results depend on the processing

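The calls of the 10 genes did not depend on the settings tried: in 198 values, 10 genes under up to 20 alternatives, limma passed 0 (adjusted p at least 0.561). The direction held in 176 and turned in 22. Jun, Junb, Egr1 and Zfp36 kept their direction in all, but their sizes moved: with single arrays left out over -0.29 to -0.051 for Jun, 0.038 to 0.26 for Junb, 0.053 to 0.61 for Egr1 and 0.15 to 0.46 for Zfp36. Zfp36 fell to 0.049 and Junb to 0.055 without Jag1+/-Rfng+/- replicates 1 and 5. For the others, single arrays left out gave differences from -0.033 to 0.23 for Fos, -0.14 to 0.020 for Fosb, -0.19 to 0.057 for Ier2, -0.063 to 0.23 for Atf3, -0.15 to 0.14 for Dusp1 and -0.31 to 0.16 for Nr4a1. Without Jag1+/-Rfng+/- replicates 1 and 5 together it turned to -0.089 for Fos, -0.019 for Atf3 and -0.21 for Dusp1. Array weights gave -0.10 for Dusp1, the arrays with the shared number 0.11 for Fosb, and the number as a term 0.18 for Nr4a1. The cause was not tested. The median difference of the 10, 0.04, moved over -0.08 to 0.18 across all settings, so its sign is not stable. Fos and Fosb have no value in the fit on genes above the median level.

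Over all genes the count past the threshold was 2. It was 11 with trend and robust eBayes, 11 among genes above the median level, 5 with array weights, 5 with the number as a term, and 2 to 6 with single arrays left out (the count was 5 when control replicate 4 was dropped, 4 for control replicate 5 and 6 for Jag1+/-Rfng+/- replicate 2). Samples with the same replicate number did not deviate together (correlations of -0.23 to 0.06), so the numbers were not taken as pairs. With the replicate block the count was 2 and the median difference of the 10 genes 0.04, and no call changed. Each value rests on 5 arrays a group, and levels near 2.91 or below bound no fold.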

Other observations

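Cell type lists were also compared between the groups, with counts from the same limma fit at an unadjusted p under 0.05, and 0 genes of any of them passed adjusted over all genes (lowest adjusted p = 0.0745). Of 13 biliary epithelium genes 11 lay lower in Jag1+/-Rfng+/- (8 at that p, and 2 higher), and of 18 portal fibroblast genes 15 lay lower (9 at that p, 0 higher). Macrophage and Kupffer cell genes lay higher in 12 of 13 (2 at that p) and neutrophil and myeloid progenitor genes in 9 of 14 (4 at that p). Endothelial genes lay higher in 8 of 12 (1 at that p), erythroid genes in 6 of 6 (0 at that p) and hepatocyte genes in 5 of 17 (0 higher and 1 lower at that p). Vascular smooth muscle genes lay higher in 2 of 8 (0 at that p) and B and T lymphocyte genes in 2 of 8 (1 in each direction at that p). Over all genes 48.5% lay higher in Jag1+/-Rfng+/- and 6.76% had such a p in either direction. The immediate early genes, with 0 of 10 at that p, are near that share, so the count sets them apart from no other genes. The biliary and portal fibroblast lists held larger median differences, -0.71 and -0.60, against 0.04 for the 10.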
